A study of Mus musculus with 12 samples.

Results

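Corticosteroid signalling was followed through the receptors Nr3c1 and Nr3c2, the steroid-activating enzyme Hsd11b1 and the glucocorticoid-induced genes Fkbp5, Tsc22d3, Sgk1, Pdk4 and Cdkn1a. Members were chosen by gene symbol alone, and 13 of the 25697 probes on each array carried the symbol of 7 of these 8 genes. Nr3c2, the mineralocorticoid receptor, was not analysed here beyond a promoter sequence. RNA came from the hippocampus or the cortex of male 3×TgAD mice, a triple-transgenic line that develops both amyloid and tau pathology. The AMI groups received amitriptyline, a tricyclic antidepressant, at 100 µg per g body weight in drinking water for 4 months, from 14 to 18 months of age. The vehicle groups received plain drinking water over the same ages. Per the study's methods, the thymidine analogue BrdU was also given to both treatment groups during the experiment. Each of the 4 combinations of tissue and treatment had 3 arrays, 12 in all. No wild-type group was analysed here, so every value describes the transgenic line with or without AMI. The sources used here do not tie samples to single mice, so the p-values measure the spread between these samples, which may be partly technical.

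Glucocorticoids such as corticosterone, the main one in mice, enter cells and bind the glucocorticoid receptor (Nr3c1) or, with higher affinity, the mineralocorticoid receptor (Nr3c2). Bound receptor moves into the nucleus and induces a common set of target genes, among them Fkbp5, Tsc22d3 and Sgk1. The hippocampus is rich in both receptors and takes part in shutting off the stress hormone axis, and antidepressants have long been studied for effects on that feedback.

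Values are mean bead signals of Illumina BeadChip probes. A level is the log2 signal of a probe, scaled within its array, as log2 units above or below the mean of all probes of that array. Differences between treatments were fitted on the 6 arrays of a tissue and differences between tissues on all 12, and the printed levels are those of the 12-array scaling. Background was not subtracted, which compresses differences of dim probes. Detected probes made up 49.0% to 51.7% of each array, and the correlation between arrays of a tissue was 0.986 or higher. As a check of the tissue labels, 2 of 2 dentate granule cell genes and 3 of 4 hippocampal pyramidal cell genes were higher in the hippocampus at an adjusted p under 0.05, while the fourth, Wfs1, was lower (-0.55). Of 6 cortical neuron genes, 3 were called lower in the hippocampus, led by Tbr1 (-1.87), and 2 higher (Fezf2 and Bcl11b). Hippocampal arrays stood apart in some markers. On hippocampus vehicle 3 the mean level of the choroid plexus genes was 3.02, against 0.33 to 0.75 on the other 5 hippocampal arrays, and that of the meningeal genes was 3.60, against 2.26 to 2.50. On hippocampus AMI 3 the mean level of the red cell genes was 3.42, against 1.49 to 2.37 on the other 5. The values of the tissues also came from separate tables made with different software, so tissue and table cannot be told apart.

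The probes decide which transcripts each value reports, and their first 30 of 50 bases are shown where several probes of a gene have to be compared. Positions are those on the transcript record annotated for each probe. Within Cdkn1a and Hsd11b1 the probes are annotated on differing versions of the record, so positions are approximate across probes. For Cdkn1a the longest run shared by any pair of the 3 probes is 5 bases, so that they are separate readings of the transcript, listed here from its start towards its 3′ end.
Cdkn1a ILMN_2846776, transcript position 1428: tggcaaccccctgcattgtgggtctagggt
Cdkn1a ILMN_2846775, transcript position 1611: cttgggggctaagggagctcacaggacact
Cdkn1a ILMN_2634083, transcript position 1734: catcctggtctggactgtctacccttagcc
For Tsc22d3 the probes are annotated on different transcripts, so they are not 2 ends of the same one. The first lies near the start of its transcript. The other lies near the 3′ end of its own, and the array annotation assigns it to all isoforms. They share at most 4 bases in a row.
Tsc22d3 ILMN_2701664, transcript position 162: ctatagcggcgcgccagcagccactcaaac
Tsc22d3 ILMN_3150811, transcript position 1972: tgatccctttggggtgtggaaaatgtaccc
For Hsd11b1 the opposite holds. Probes ILMN_1214998, ILMN_2774160 and ILMN_3115917 start at positions 998, 1005 and 1014 and share a run of 32 bases, so they read nearly the same stretch and are not independent. The shared run is given below by its first 30 bases, followed by the start of the isoform-specific probe at position 44.
Hsd11b1, run shared by 3 probes: gccctggtgagtggtcttagaacagtcctg
Hsd11b1 ILMN_3041149, isoform-specific: gcaaccagagataggcagccaataaaaagg
The Fkbp5 probe ILMN_2718266 begins ggaaggtgcccagcacccctggattttaca, the Pdk4 probe ILMN_1259322 begins gcagtgactttcacagcaggactttgactc and the Sgk1 probe ILMN_1213954 begins ggaccaatgccccagttgtcagtcaaagcc. The genes lie on chromosome 1 (Hsd11b1), 6 (Pdk4), 10 (Sgk1), 17 (Fkbp5 and Cdkn1a) and X (Tsc22d3).

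Nr3c1, the glucocorticoid receptor, was at the edge of detection. Its probe ILMN_2740568 was detected on 3 of 6 hippocampal arrays (1 vehicle, 2 AMI) and on 1 of 6 cortical arrays, with bead signals of 67.3 to 101 in the hippocampus and 75.5 to 109 in the cortex. Levels were -0.76, -0.85 and -0.87 on the hippocampal vehicle arrays and -0.70, -0.63 and -0.86 on the hippocampal AMI arrays. In the cortex they were -0.89, -0.86 and -0.89 with vehicle and -0.85, -0.63 and -0.86 with AMI. All 4 groups overlapped within this narrow range below the array mean. In the hippocampal samples, where the probe entered the test, the AMI difference was 0.10 (95% confidence interval -0.13 to 0.34, limma adjusted p = 1.0). In a fit that kept probes detected in either tissue, the tissue difference was 0.05 (-0.09 to 0.19, adjusted p = 0.557). A probe this close to background reports little about the receptor's transcript.

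Hsd11b1 encodes the enzyme that regenerates active corticosterone from its inert 11-keto form inside cells, and it was the member with the largest excess in the hippocampus. On probe ILMN_1214998 the hippocampal levels were 2.66, 2.61 and 2.48 with vehicle and 2.76, 2.67 and 2.71 with AMI. The cortical levels were 1.76, 1.74 and 1.43 with vehicle and 1.39, 2.32 and 1.64 with AMI. Every hippocampal array lay above every cortical one. The mean was 2.65 ± 0.10 (SD, n = 6) in the hippocampus and 1.71 ± 0.33 (n = 6) in the cortex, a difference of 0.94 (0.66 to 1.22) or 1.92-fold (limma adjusted p = 0.000104). ILMN_3115917 gave 0.96 (adjusted p = 0.000147) and ILMN_2774160 gave 0.87 (adjusted p = 0.000300). The isoform-specific probe ILMN_3041149 was detected on 0 of 12 arrays, with levels from -1.11 to -0.78, and gave no reading.

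With AMI, the lowest hippocampal array of Hsd11b1 ILMN_1214998 was above the highest vehicle array, and the difference was 0.14 (-0.09 to 0.36, limma adjusted p = 1.0). An exact two-sided permutation p was 0.1 here, the smallest that groups of 3 allow. Of all tested hippocampal probes, 7.89% had groups that did not overlap. The gap was narrow, with levels of 2.67 on AMI 2 and 2.66 on vehicle 1, and under median centring the groups overlapped. The deposited bead signals, before scaling, also overlapped, with 715 to 1108 on the vehicle arrays and 648 to 1411 on the AMI arrays. The 2 neighbouring probes overlapped between treatments, with differences of 0.15 for ILMN_3115917 and 0.14 for ILMN_2774160, the latter 0.04 without vehicle 3. In the cortex the AMI difference of ILMN_1214998 was 0.13 (-0.35 to 0.61), and it rested on 1 array. Cortex AMI 2 had a bead signal of 939, against 320 to 458 on the other 5 cortical arrays, and without it the 3 probes gave -0.12, -0.14 and -0.20. That array also had the highest median signal of the cortical arrays, 103 against 80.1 to 88.8 on the others, and the part of this in the result was not tested.

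**Figure D1:**
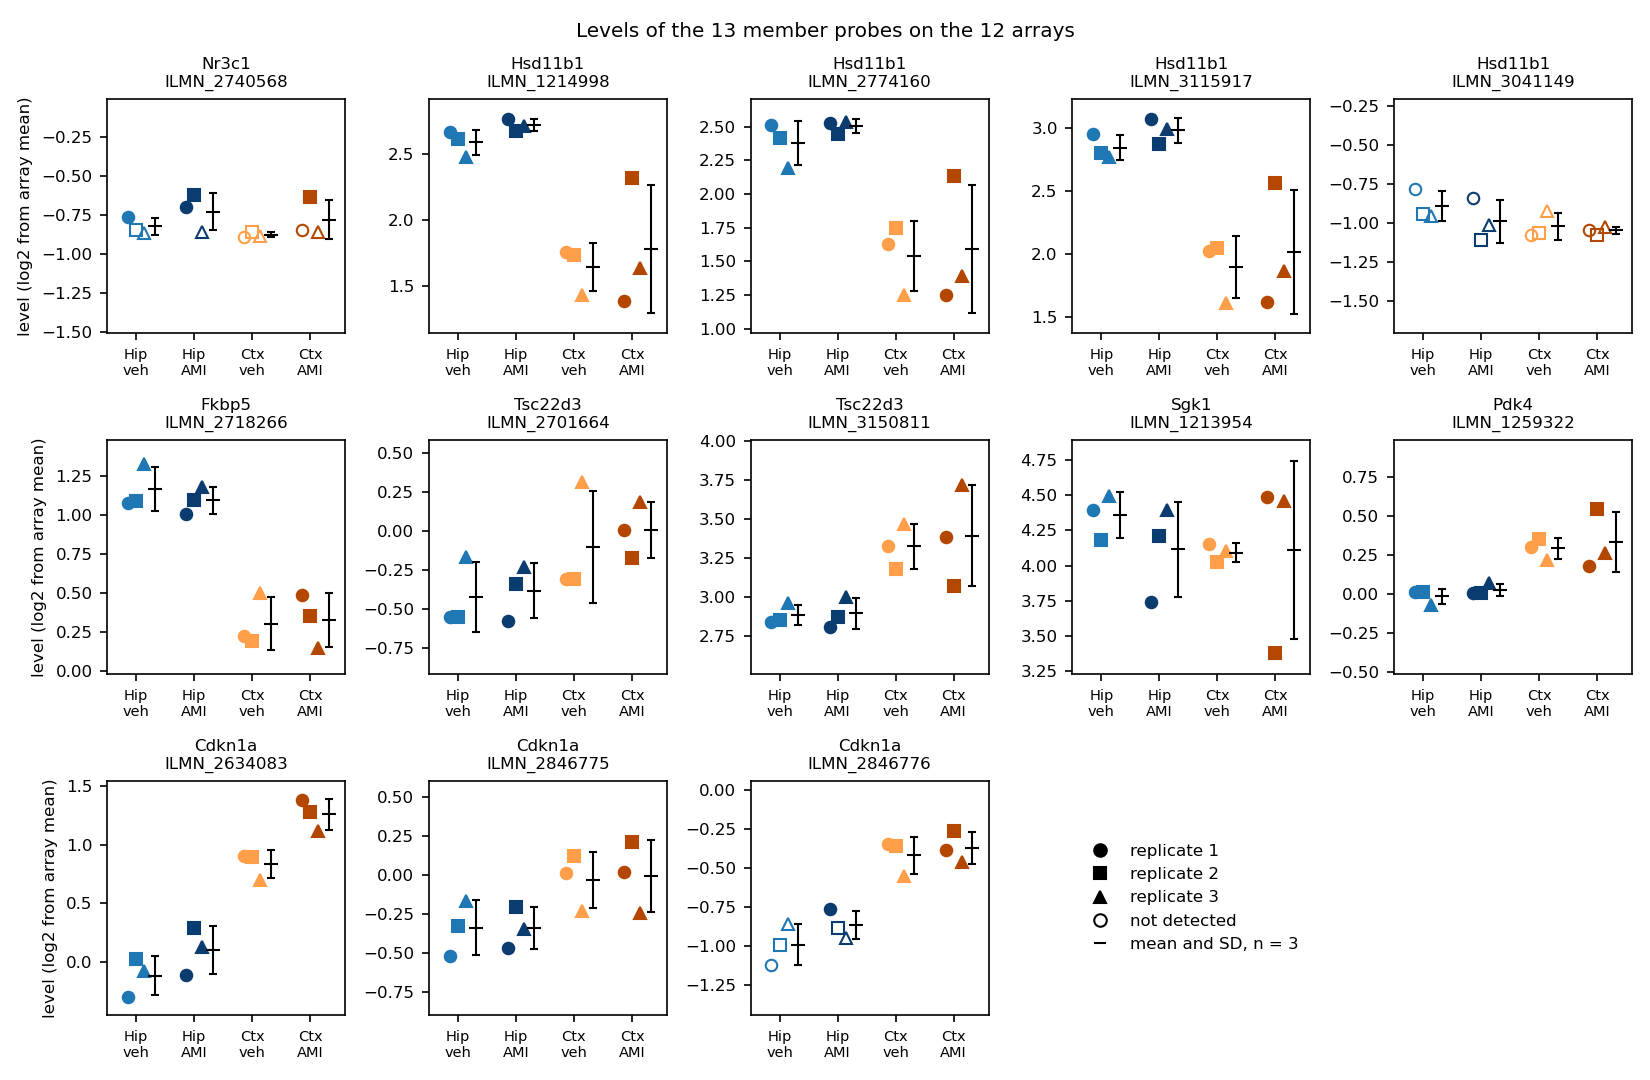
Level (log2 units from the array mean, 12-array scaling, each panel with its own axis) of the 13 member probes on each array, with symbols for replicates, open where the probe was not detected, and bars for the group mean and SD, n = 3 per group. Hsd11b1 and Fkbp5 sit higher in both hippocampal groups, Cdkn1a ILMN_2634083 sits higher in both cortical groups, and Sgk1 on cortex AMI 2 falls to 3.38.

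Fkbp5 encodes a co-chaperone of the receptor complex that lowers the receptor's affinity for hormone, and its induction by glucocorticoids closes a short negative feedback loop. Its levels were 1.08, 1.09 and 1.33 on the hippocampal vehicle arrays and 1.01, 1.10 and 1.18 on the hippocampal AMI arrays. In the cortex they were 0.22, 0.19 and 0.50 with vehicle and 0.49, 0.35 and 0.15 with AMI. The tissues were separated by a gap wider than the spread inside either, with means of 1.13 ± 0.11 and 0.32 ± 0.15 (n = 6 each). The difference was 0.81 (0.63 to 1.0) or 1.76-fold (limma adjusted p = 1.07e-05). Treatment groups overlapped in both tissues, with an AMI difference of -0.07 (-0.33 to 0.18) in the hippocampus and 0.02 (-0.25 to 0.30) in the cortex.

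Tsc22d3 encodes GILZ, a leucine zipper protein that mediates part of the anti-inflammatory action of glucocorticoids. Its 3′ probe ILMN_3150811 read 2.84, 2.85 and 2.96 on the hippocampal vehicle arrays and 2.81, 2.87 and 3.01 on the AMI arrays. In the cortex the levels were 3.33, 3.18 and 3.47 with vehicle and 3.39, 3.07 and 3.72 with AMI. All 6 cortical arrays lay above all 6 hippocampal arrays, a difference of -0.47 (-0.68 to -0.25) for hippocampus minus cortex (limma adjusted p = 0.00217). This call depended on the scaling, since with arrays only centred on their medians the difference was -0.03 (adjusted p = 0.903). The dimmer probe ILMN_2701664, near the start of a different annotated transcript, overlapped between tissues, with -0.55 to -0.16 in the hippocampus and -0.31 to 0.31 in the cortex. Its difference was -0.35 (-0.62 to -0.09, adjusted p = 0.0335). That call was lost on leaving out any 1 of 7 arrays, within each treatment, and under median centring. The arrays were hippocampus vehicle 1 and 2, hippocampus AMI 1 and 2, cortex vehicle 3, and cortex AMI 1 and 3, and over all single arrays left out the difference ran from -0.42 to -0.25. AMI differences of the pair were 0.04 and 0.01 on hippocampal arrays and 0.10 and 0.06 on cortical ones, with overlapping groups throughout.

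Sgk1 encodes a kinase that regulates ion channels and transporters downstream of both receptors. The levels were 4.40, 4.18 and 4.50 with vehicle and 3.74, 4.21 and 4.39 with AMI in the hippocampus. In the cortex they were 4.15, 4.02 and 4.10 with vehicle and 4.49, 3.38 and 4.46 with AMI. The vehicle arrays were tight in the cortex, with an SD of 0.07 (n = 3), while the AMI arrays there had an SD of 0.63, with 2 arrays above the range of the vehicle arrays and 1 below it. The low array was cortex AMI 2, whose bead signal of 2037 lay inside the range of the other cortical arrays (1644 to 2659), so its low level appeared only after each array was scaled. The AMI difference in the cortex was 0.02 (-0.55 to 0.59, limma adjusted p = 0.992), and without that array it was 0.35 (adjusted p = 0.897). In the hippocampus the AMI difference was -0.26 (-0.66 to 0.15), of which -0.06 remained without AMI 1. The tissue difference was 0.14 (-0.24 to 0.51, adjusted p = 0.575), and it was -0.05 without cortex AMI 2 and 0.71 (adjusted p = 0.0318) under median centring.

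One start site of Sgk1 carries a textbook binding sequence for the receptor. In RefSeq windows of 250 bases before to 50 after each gene start on GRCm38.p6, the palindrome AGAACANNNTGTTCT, which reads the same on both strands, was in 3 of 32851 windows (0.00913%). The member windows searched were 15, of 7 genes that included Nr3c2 but not Nr3c1. Of these 15, 1 held the palindrome, at an Sgk1 start, in the 115-base stretch chr10:21993651-21993765 on the plus strand. The site, in capitals, begins 189 bases before that start.
Sgk1 promoter: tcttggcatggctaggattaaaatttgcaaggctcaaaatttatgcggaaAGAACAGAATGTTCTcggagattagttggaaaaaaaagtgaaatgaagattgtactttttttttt
The TGTTCT arm of the palindrome, searched on its own and on both strands, was in 4 of the 15 member windows (3 of Sgk1, 1 of Tsc22d3) and in 19.0% of all windows. These matches describe the letters in the windows and were not set against any binding data.

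Pdk4 encodes a mitochondrial kinase that turns off pyruvate dehydrogenase and so spares glucose. Its levels were 0.01, 0.01 and -0.07 with vehicle and 0.01, 0.01 and 0.07 with AMI in the hippocampus. The cortical levels were 0.30, 0.36 and 0.22 with vehicle and 0.18, 0.55 and 0.27 with AMI. Hippocampal arrays were tightly grouped and all below the cortical ones, a difference of -0.31 (-0.46 to -0.15, limma adjusted p = 0.00395). Median centring reduced this to -0.22 (adjusted p = 0.0855), while neqc, which subtracts background, widened it to -0.54. AMI differences were 0.04 in both tissues (hippocampus -0.16 to 0.25, cortex -0.22 to 0.29).

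Cdkn1a encodes the cell cycle inhibitor p21, a target of p53 that glucocorticoids also induce, and it was the member with the largest tissue difference and the largest AMI difference. On the 3′ probe ILMN_2634083 the hippocampal levels were -0.30, 0.02 and -0.08 with vehicle and -0.11, 0.29 and 0.13 with AMI. The cortical levels were 0.91, 0.90 and 0.70 with vehicle and 1.38, 1.28 and 1.12 with AMI. In the cortex every AMI array was higher than any vehicle array, while the hippocampal treatments overlapped. The deposited bead signals of the cortex, before scaling, did overlap, with 261, 251 and 203 on the vehicle arrays and 354, 441 and 255 on the AMI arrays. The cortical AMI difference, fitted within that tissue, was 0.40 (0.17 to 0.64, SE 0.10) or 1.32-fold, with a limma p of 0.00416, at rank 38 of 12944 probes, and an adjusted p of 0.756. The exact permutation p was 0.1, the smallest possible. The adjusted p ran from 0.0518 to 1.0 over the alternative settings, so the difference did not pass the correction under any of them. By the methods' t-test the adjusted p was 0.746. In the hippocampus the difference was 0.23 (-0.09 to 0.55, adjusted p = 1.0), and AMI was higher in each of the 3 pairs of arrays with the same replicate number. With the pairs as a replicate block the adjusted p was 0.608. The difference between the tissues' responses was -0.21 (-0.59 to 0.18, limma adjusted p = 1.0), so a difference between the responses was not shown.

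The other Cdkn1a probes did not show the same AMI difference. ILMN_2846775 gave 0.02 (-0.28 to 0.33) in the cortex and -0.00056 (-0.29 to 0.29) in the hippocampus, and ILMN_2846776 gave 0.05 (-0.18 to 0.27) in the cortex, the tissue in which it was tested. These probes were dimmer, with cortical bead signals of 110 to 201 and 94.3 to 143, against 203 to 441 for ILMN_2634083. On direction between tissues the probes concurred. Hippocampus minus cortex was -1.05 (-1.25 to -0.86, limma adjusted p = 2.26e-06) for ILMN_2634083, a hippocampal value 0.482 times the cortical one, and -0.32 (-0.53 to -0.11, adjusted p = 0.0186) for ILMN_2846775. ILMN_2846776 was detected on 1 of 6 hippocampal and 6 of 6 cortical arrays and gave -0.53 (-0.69 to -0.38), a value that counts as no separate support because it passed the filter through the cortex. With neqc the 3 differences were -1.53, -0.61 and -1.06, and with median centring ILMN_2846775 was at -0.26 and no longer passed (adjusted p = 0.0846).

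**Figure D2:**
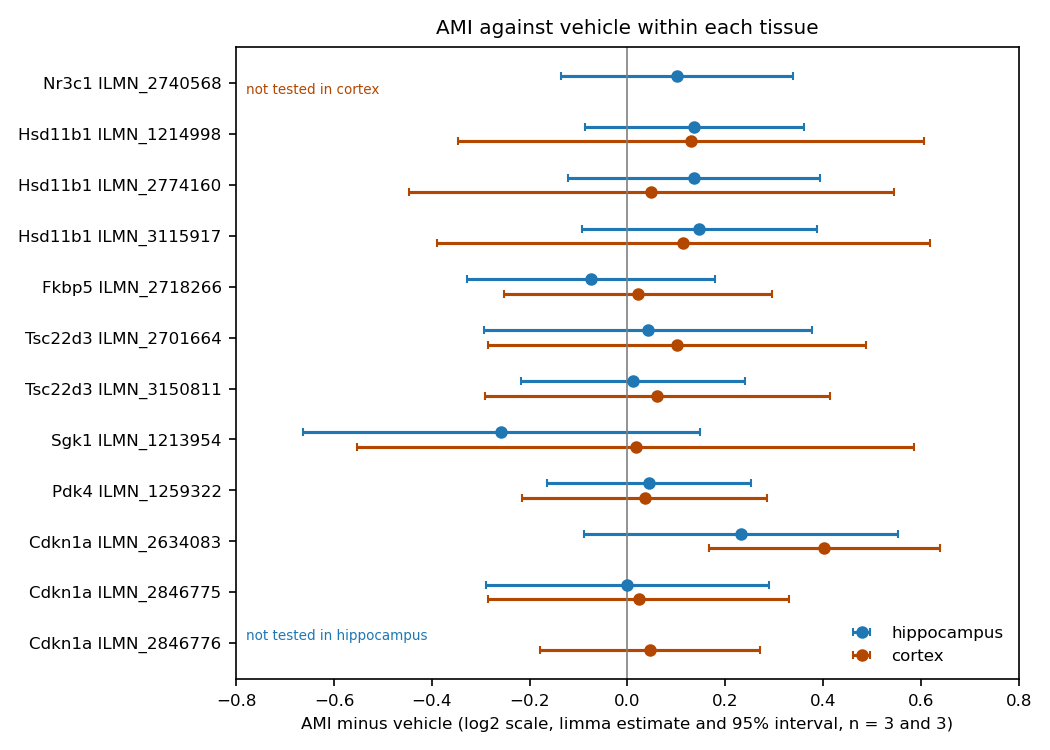
AMI minus vehicle (log2 difference, limma) for each tested member probe within each tissue, with 95% confidence intervals from 6 arrays per tissue. Intervals include 0 for all but Cdkn1a ILMN_2634083 in the cortex (0.17 to 0.64), and none of the differences passed the adjusted threshold.

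AMI gave no call among the member probes. In the hippocampus 0 of 11 tested probes passed at an adjusted p under 0.05 by limma (0% of all 13163 tested) and 0 of 11 had an unadjusted p of 0.05 or less (2.35% of all). Of the 11, 8 were higher and 3 lower after AMI, with a median of 0.04, against 0.01 over all tested probes, and 1 had treatment groups that did not overlap (7.89% of all). In the cortex 0 of 11 passed (0% of 12944), 1 had an unadjusted p of 0.05 or less (6.28%), and 1 had groups that did not overlap (12.2%). All 11 cortical differences were above 0, with a median of 0.05 against 0.02 over all probes, but the direction of 4 turned under quantile normalization and under neqc, and that of 6 under array weights. By the methods' t-test no probe of the whole array passed after adjustment in either tissue. The interaction of tissue and treatment gave 0 of 10 calls (0% of 12430, with 3.03% at an unadjusted p of 0.05 or less), and member estimates ran from -0.26 for Sgk1 to 0.08 for Hsd11b1 ILMN_2774160. The intervals of single members reached from -0.66 to 0.55 in the hippocampus and from -0.55 to 0.64 in the cortex, so with 3 arrays a group any value in those ranges was left possible for some member.

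Between the tissues, by contrast, 9 of 10 member probes detected in both passed at an adjusted p under 0.05, where 42.4% of all 12430 tested probes did. They were the 3 Hsd11b1 probes and Fkbp5, higher in the hippocampus (4 of 10, against 23.9% of all), and 2 probes each of Cdkn1a and Tsc22d3 with Pdk4, higher in the cortex (5 of 10, against 18.5%). Of the 10, 7 had tissues that did not overlap (22.0% of all), and the 3 Hsd11b1 probes count as a single reading. The members thus split in direction, with a median difference of -0.09 against 0.02 over all probes. On vehicle arrays alone 7 of 10 passed (24.9% of all) and on AMI arrays alone 7 of 10 (26.1%), with Cdkn1a ILMN_2846775 and Tsc22d3 ILMN_2701664 missing from both. Scaling mattered for the balance of the whole array, with 2969 probes higher and 2303 lower in the hippocampus as reported, and 4331 higher and 593 lower under median centring, which moved the median of all probes to 0.21. Relative to that median, Tsc22d3 ILMN_3150811 was at -0.24 and Sgk1 at 0.50. With that median left in, Hsd11b1 (1.16 to 1.29), Fkbp5 (0.98) and Cdkn1a ILMN_2634083 (-0.91) kept both call and direction under median centring.

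**Figure D3:**
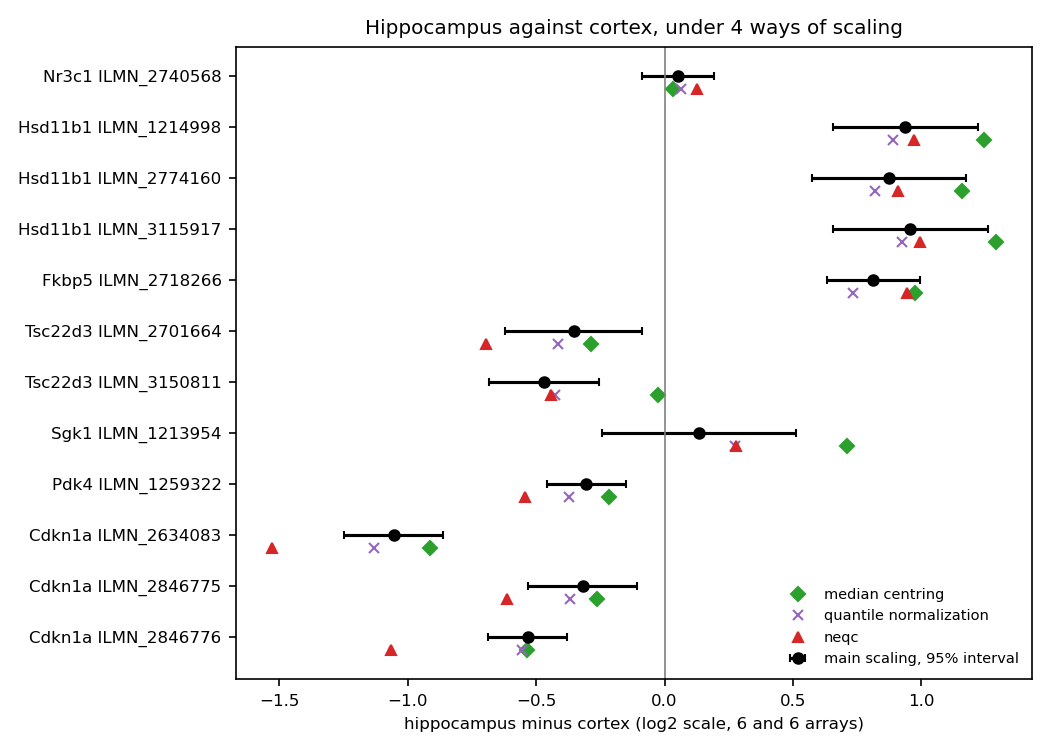
Hippocampus minus cortex (log2 difference, limma, 6 arrays per tissue) for each member probe, with black points and 95% confidence intervals for the scaling used here and coloured symbols for median centring, quantile normalization and neqc. Hsd11b1 (0.87 to 0.96) and Fkbp5 (0.81) lie on the side of the hippocampus and Cdkn1a ILMN_2634083 (-1.05) on that of the cortex under all 4, while median centring puts Sgk1 at 0.71 and Tsc22d3 ILMN_3150811 at -0.03.

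Marker genes of several cell types differed between the tissues as well, and in bulk RNA fewer cells of a type and less RNA per cell cannot be told apart. Microglial genes were higher in the hippocampus for 7 of 7 tested, with a mean level of 1.06 to 1.47 per array against 0.57 to 0.77 in the cortex. Endothelial genes were lower for 7 of 7, of which 2 passed, and oligodendrocyte genes gave 1 higher and 4 lower calls of 10. Striatal genes were lower for 6 of 6, with a median of -1.48 and a mean level of 1.56 to 2.02 per cortical array, against 0.20 to 0.53 in the hippocampus. Astrocyte genes were divided, with 2 called in each direction. After AMI, oligodendrocyte genes were lower in the hippocampus for 10 of 10, with a median of -0.42, choroid plexus genes for 8 of 8, with a median of -0.89, and striatal genes in the cortex for 5 of 6, with a median of -0.26. Red cell genes were higher in the hippocampus for 3 of 3, with a median of 0.80. None of these passed the adjusted threshold. Without hippocampus vehicle 3, the array high in choroid plexus genes, the hippocampal AMI difference of Hsd11b1 ILMN_1214998 was 0.08, that of Fkbp5 0.01 and that of Sgk1 -0.18. Without hippocampus AMI 3, the array high in red cell genes, they were 0.14, -0.12 and -0.40. The part of these cell types in the member values was not tested.

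Member genes also moved from array to array inside their groups. After subtracting the 4 group means, Hsd11b1 ILMN_1214998 and Pdk4 had a Pearson r of 0.96 over 12 arrays, and 0.92 without cortex AMI 2. Sgk1 ran opposite to Hsd11b1, with r between -0.76 and -0.82 for the 3 probes, which fell to between -0.51 and -0.59 without that array. Sgk1 and Tsc22d3 ILMN_3150811 had an r of 0.78, and 0.61 without it. The 3′ Cdkn1a probe had an r of 0.77 with ILMN_2846775 and 0.30 with ILMN_2846776, and the Tsc22d3 pair had an r of 0.73. These are descriptions of 12 arrays that share their scaling, and no test was made of them.

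**Figure D4:**
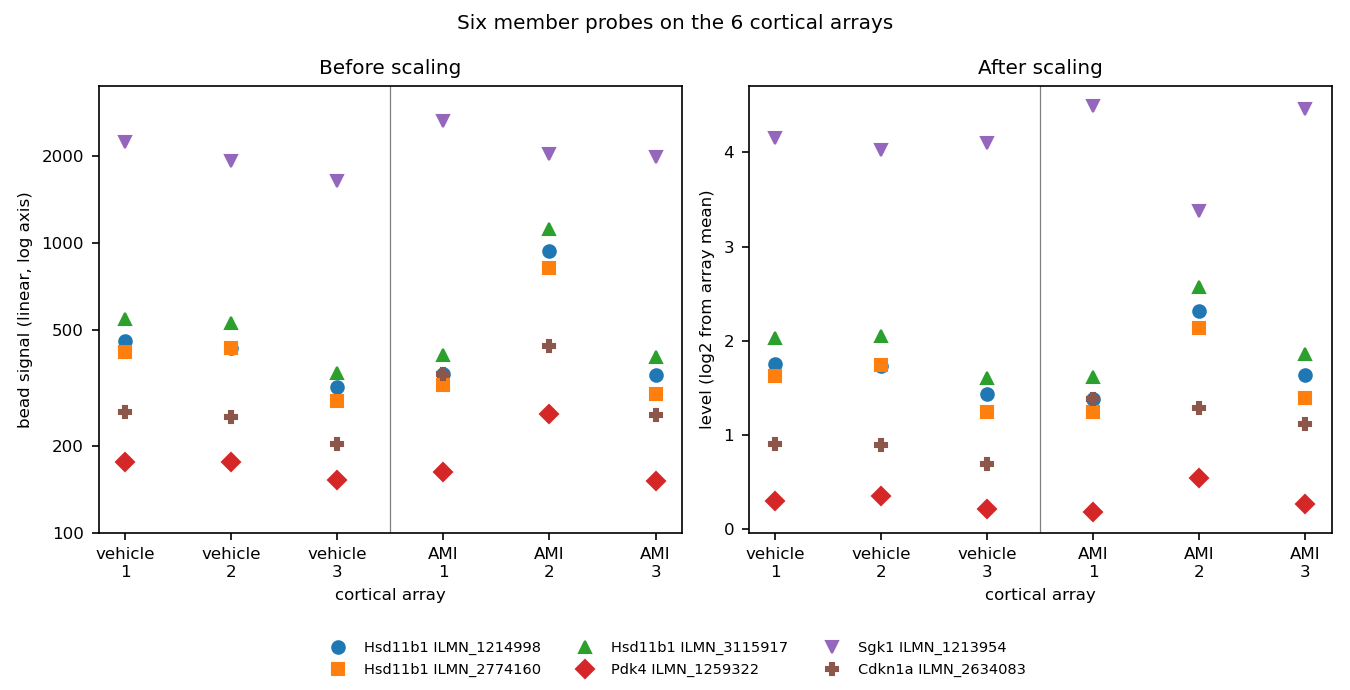
Hsd11b1, Pdk4, Sgk1 and Cdkn1a on the 6 cortical arrays, as deposited bead signal on a log axis and as scaled level, 1 point per array. Cortex AMI 2 is highest for Hsd11b1 on both scales, while for Sgk1 its bead signal (2037) is unremarkable and its level (3.38) the lowest.

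Genes outside the members that followed them most closely were taken as the 3 detected probes with the highest r for each member probe. For Fkbp5 they were Acsbg1 (r = 0.97, and 0.97 without cortex AMI 2), Slc38a5 (0.94) and Tle1 (0.93). For Hsd11b1 ILMN_1214998 they were Utx (0.97), Pts (0.97) and Pdk4, which is itself a member. For Sgk1 they were Yipf3 (0.93), Pim3 (0.90) and Pgf (0.88), which fell to 0.87, 0.85 and 0.81 without cortex AMI 2. For Tsc22d3 ILMN_3150811 the closest was Thra (0.92), a thyroid hormone receptor. For Cdkn1a ILMN_2634083 the closest were Siah1b, Dbnl and Rrm1 (0.96 each). Each r was picked as one of the highest among all detected probes, so high values come partly from that choice, and none was tested.

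A wider list of 30 glucocorticoid-induced genes, of which 23 were tested, gave 0 calls for AMI in either tissue. In the hippocampus 11 were higher and 12 lower, with a median of -0.01 against 0.01 over all probes, and 0 of 23 had an unadjusted p of 0.05 or less. In the cortex 14 were higher and 9 lower, with a median of 0.04 against 0.02. Unadjusted p values of 0.05 or less there were those of Per1, a clock gene with a glucocorticoid-responsive promoter, at -0.46 (-0.85 to -0.08, limma adjusted p = 0.756; -0.64 without vehicle 1 and -0.27 without vehicle 2), and Bcl6, a transcriptional repressor, at 0.25 (0.03 to 0.47, adjusted p = 0.759). Both, and also Glul, had treatment groups that did not overlap. Of all tested cortical probes, 12.2% had groups that did not overlap and 6.28% an unadjusted p of 0.05 or less. Between tissues 17 of the 23 were higher in the hippocampus and 6 lower, with a median of 0.14 against 0.02 over all probes. Of these, 8 were called higher and 1 lower, where 23.9% and 18.5% of all tested probes were. The leading genes were Gadd45g, a growth arrest and DNA damage gene, at 1.11 (adjusted p = 1.30e-06), Bcl6 at 0.66 (3.93e-05) and Glul, the glutamine synthetase of astrocytes, at 0.53 (0.000210). The 1 called lower, named after its values were seen, was Dusp1, a phosphatase of MAP kinases that also belongs to the immediate early genes. Its difference was -1.02 (adjusted p = 0.00202), and under median centring -0.63 (adjusted p = 0.0524). Of 8 immediate early genes tested, all 8 were lower in the hippocampus and 4 of them passed.

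Genes that serve the receptors gave a similar picture. Of 20 tested chaperones and coregulators, 12 were higher and 8 lower after AMI in each tissue, with no adjusted call. The smallest p was that of Hsp90aa1, a chaperone that holds the receptor ready for hormone, at 0.29 in the hippocampus (0.01 to 0.57, limma adjusted p = 1.0). This hippocampal reading dropped out under a stricter detection filter. Between tissues 9 were higher and 11 lower in the hippocampus, and 4 were called in each direction, near the 23.9% and 18.5% of all tested probes. Smarca4, the ATPase of the BAF chromatin remodeller, was at 0.51 (adjusted p = 0.000148) and Med1, a Mediator subunit that binds nuclear receptors, at 0.49 (0.000517). Fkbp4, the co-chaperone that opposes Fkbp5 in the receptor complex, was at -0.45 (0.000142), but under median centring at 0.02, so its direction rested on the scaling.

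Of 18 stress axis and steroid-handling genes, 6 were tested in the hippocampus and 5 in the cortex, again with no adjusted call for AMI. The smallest p was that of Akr1c18, a steroid-metabolising reductase, at 0.36 in the hippocampus (0.08 to 0.65, limma adjusted p = 1.0). Its groups did not overlap, as was so for 7.89% of all tested hippocampal probes. Akr1c18 was detected too rarely to be tested in the cortex, and its hippocampal reading dropped out under a stricter detection filter. Between tissues Crhr1, the receptor for corticotropin-releasing hormone, was lower in the hippocampus at -0.33 (adjusted p = 0.00243). Abcb1b, a transporter that exports steroids and drugs, was higher at 0.31 (adjusted p = 0.00414). Clock genes, which follow time of day as corticosterone does, gave 6 higher and 4 lower values after AMI in the hippocampus and 4 higher and 7 lower in the cortex, with no adjusted call. Between tissues 2 of them were called higher and 4 lower in the hippocampus.

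Grlf1 was included because the study names it as a glucocorticoid receptor DNA-binding factor. The study itself groups it with neurogenesis and neuronal growth, and by western blot reported more of its protein in the hippocampus after AMI. Only its transcript was read here. Its probe ILMN_2634349 was at 0.71 after AMI in the hippocampus (0.24 to 1.19, limma adjusted p = 1.0) and at 0.23 in the cortex (-0.29 to 0.75, adjusted p = 0.912). Leaving out single arrays gave 0.57 to 0.93 in the hippocampus. The tissue difference was -0.10 (-0.48 to 0.28, adjusted p = 0.678).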

How the data were processed

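The authors hybridised RNA of 12 samples to Illumina MouseRef-8 arrays and deposited, per probe and array, the mean bead signal as a linear intensity, neither normalized nor background-subtracted, and a detection p-value. Per the file headers the hippocampal table was made with BeadStudio 3.4 and the cortical table with GenomeStudio 1.1.1. Arrays have no read depth, so the 3 arrays a group limit the precision.

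Within each array the log2 signals were set to a mean of 0 and a common SD (the z normalization of the study's methods), the SD being the average over the arrays in the fit. A probe entered a tissue's test if its detection p was at most 0.05 on 3 or more of its 6 arrays. Groups of 3 were compared by lmFit and eBayes (limma 3.58.1 under R 4.3.3), and p-values were adjusted by Benjamini-Hochberg over all tested probes, with a threshold of 0.05. Tissue and interaction were fitted on 12 arrays over probes detected in both tissues. Scripts were tested on simulated data. Python 3.11.15 with pandas 2.3.3, numpy 2.4.6 and matplotlib 3.10.9 was used for tables and figures.

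The members and the gene and marker lists were chosen with earlier results of these data known. All member probes are accounted for. Beyond them, at most the 3 genes of smallest p per list and tissue, the 3 probes most correlated with each member probe, and Grlf1 are named. Promoter windows are from RefSeq (GRCm38.p6), and 7 of the 8 genes, all but Nr3c1, had one used here. As alternatives, arrays were quantile-normalized, centred on their medians, or processed by neqc (offset 16). Other fits used other detection filters, a variance trend with robust estimates, weights per array, all 12 arrays, a replicate block, the methods' t-test, or 1 array fewer.

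In the hippocampus, arrays with the same replicate number deviated together (r = 0.61, 0.30 and 0.29 for the 3 pairs of AMI and vehicle arrays). The highest values for unequal numbers were 0.28 (AMI 3 with vehicle 2) and 0.17 (AMI 2 with vehicle 3), so only pair 1 stood apart. The numbers were taken to pair the arrays, from the data and not from the labels, and pairs 2 and 3 are uncertain. The hippocampal AMI results given above come from unpaired fits unless the replicate block is named. With the replicate block 1063 hippocampal probes had an unadjusted p of 0.05 or less, against 309 without it, and none passed after adjustment in either fit.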

Additional observations from a re-analysis of the deposited data

Results flagged for a closer look

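Of 22 sets of 6 arrays (each member probe detected in a tissue), 1 held an array far from the others. For Hsd11b1 ILMN_2774160 in the hippocampus, vehicle 3 had a level of 2.19, against 2.42 to 2.54 on the other 5 arrays. The gap to the nearest array was 0.645 of the whole range, over Dixon's 95% value of 0.625. Chance alone singles out about 1 in 20 such sets. The same array had the high choroid plexus and meningeal levels given above, and the part of these in the value was not tested.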

How the results depend on the processing

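The 3 arrays a group limit the precision, and unsubtracted background compresses dim probes. Over all probes, the AMI calls were 0 in the hippocampus (0 to 1 on leaving out single arrays, the 1 without AMI 2) and 0 in the cortex (2 with neqc, 2 with trend and robust variances, 2 with array weights, 0 to 1 without single arrays, the 1 without AMI 3). The interaction gave 0 throughout. The tissue comparison gave 5272 calls, 3099 on vehicle arrays, 3239 on AMI arrays and 4540 to 5299 without single arrays. Of the members' hippocampal groups, 1 did not overlap, 2 with quantile normalization, 2 with neqc and 0 with median centring.

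Directions of hippocampal AMI differences turned for Cdkn1a ILMN_2846775 with median centring (0.011) and with array weights for Fkbp5 (0.0028) and Sgk1 (0.011). In the cortex, quantile normalization turned Cdkn1a ILMN_2846776 (-0.0043), Cdkn1a ILMN_2846775 (-0.036), Pdk4 (-0.013) and Fkbp5 (-0.031), and neqc turned the same probes (-0.0028, -0.056, -0.021 and -0.044). Array weights turned Hsd11b1 (-0.19, -0.23 and -0.25), Pdk4 (-0.079), Cdkn1a ILMN_2846776 (-0.013) and Cdkn1a ILMN_2846775 (-0.026). Between tissues, Fkbp4 turned with median centring (0.020). The cause was not tested.

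Without single arrays, hippocampal differences ran from -0.038 to 0.18 (Tsc22d3 ILMN_2701664), -0.046 to 0.056 (Tsc22d3 ILMN_3150811), -0.12 to 0.011 (Fkbp5) and -0.097 to 0.090 (Cdkn1a ILMN_2846775). Those that kept their direction included Hsd11b1 ILMN_2774160 (0.041 to 0.21), Nr3c1 (0.046 to 0.17), Pdk4 (0.014 to 0.060) and Cdkn1a ILMN_2634083 (0.13 to 0.35). Cortical ones ran from -0.12 to 0.32, -0.14 to 0.30 and -0.20 to 0.21 (Hsd11b1 ILMN_1214998, ILMN_3115917 and ILMN_2774160), -0.065 to 0.11 (Pdk4), -0.052 to 0.12 (Fkbp5), -0.16 to 0.35 (Sgk1), -0.093 to 0.21 (Tsc22d3 ILMN_3150811), -0.076 to 0.14 (Cdkn1a ILMN_2846775), -0.018 to 0.091 (Cdkn1a ILMN_2846776) and -0.013 to 0.45 (Grlf1). The tissue difference of Sgk1 ran from -0.046 to 0.23. Of all tissue values of the members, Sgk1 included, 81 of 90 under alternative settings and 112 of 120 without single arrays kept direction and side of the threshold.

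The replicate block changed no member's call. In the cortex (r = -0.06, 0.33 and 0.33 for equal numbers) 1125 probes had an unadjusted p of 0.05 or less with the block and 813 without, and the tissue comparison gave 4858 calls with it. A block for slide or scan date was not run, since the headers give none per array.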
